A study of Gallus gallus with 15 samples.

Results

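The genes described here are 49 genes assigned to the TGF-beta and BMP signalling pathways, measured in chicken abdominal fat. They are ligands, receptors, secreted binders and inhibitors, SMAD proteins with their regulators, and ID genes. They were chosen by gene symbol, from the families BMP, BMPR, TGFB, TGFBR, SMAD, LTBP, GDF, RGM, GREM, CHRD and ID and the single genes NOG, BAMBI, PMEPA1, SKI and SKIL. The choice was made with earlier results of these data known. TGFBR2L, BMP2K and TGFBRAP1 are members by symbol only. Of these, TGFBR2L is counted with the receptors and BMP2K with the SMADs and their regulators. They are represented by 87 probe sets, the groups of short oligonucleotides with which the Affymetrix GeneChip Chicken Genome Array measures a transcript. A probe set was kept unless it was below 3 on the log2 scale in 5 or more of the 15 birds, which left 49 probe sets of 37 genes, out of 18612 probe sets and 9243 named genes kept in all.

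Ligands of this family are secreted, many of them in a latent form held in the extracellular matrix, and they bring together type I and type II receptor kinases at the cell surface. The receptors phosphorylate SMAD transcription factors, SMAD2 and SMAD3 mainly below TGF-beta and SMAD1, SMAD5 and SMAD9 mainly below BMPs, and ID genes are classical BMP targets. In adipose tissue, BMPs are known for committing precursor cells to the adipocyte lineage, and TGF-beta for restraining adipocyte differentiation.

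The study asked how a short fast and a loss of insulin action change gene expression in the fat of young broilers, and measured 1 array per bird. All 15 birds were male meat-type chickens of the ISA915 line, 16 to 17 days old. The 5 fed birds ate ad libitum, the 5 fasted birds were without feed for 5 h, and the 5 insulin-neutralized birds kept their feed and were given porcine anti-insulin serum at 0, 2 and 4 h. Fed and fasted birds were injected with normal porcine serum, so every bird received a foreign serum. The values are log2 expression after GCRMA normalization, and a level of 1 probe set cannot be set against that of another.

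Each pair of groups was compared with limma in 1 model of all 15 birds, and a probe set was called at a Benjamini-Hochberg adjusted p under 0.05 over all 18612 probe sets. Adjusted p-values below are those of limma. All 6 adipocyte markers looked at were kept. Fed birds 4 and 5 correlated least with the other birds, at a mean of 0.955 and 0.958 against 0.963 to 0.977, and calls lost without them are named. Fed bird 4 held the highest value of 17 of the 49 probe sets (34.7%), against 19.1% of all probe sets kept. In whole tissue, fewer cells of a type and less RNA per cell cannot be told apart.

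Most of the calls lay between fasted and fed birds. There 9 of 49 probe sets were called (18.4%), 6 higher and 3 lower, against 9.64% of all probe sets tested, 4.95% higher and 4.69% lower. At an unadjusted p under 0.05 there were 16 (32.7%), against 24.9%. BMP2, its receptor BMPR2, the BMP coreceptor RGMB, SMAD9, ID1 and ID2 were higher in fasted birds, by 1.34-fold to 2.40-fold. PMEPA1, BAMBI and SMAD6, known as inhibitors of TGF-beta or BMP signalling, were lower, by 1.53-fold to 2.75-fold. These are RNA levels, and whether signalling itself changed was not tested. Inhibitors and corepressors were not all lower. Of those not called, CHRD, CHRDL1, CHRDL2, SMAD7 and SKI were at lower mean levels in fasted birds, and GREM1 and SKIL at higher ones. Of the 9 calls, 5 remained without fasted bird 4 or without fed bird 1, and 3 remained without fed birds 4 and 5 together, when TGFBR2L was called as well. Of all 18612 probe sets, 618 were called higher and 562 lower without fasted bird 4, and 801 and 689 without fed bird 1. Without fed birds 4 and 5 the member count was 4 of 49, near the share over all probe sets. That fit called 863 higher and 804 lower, against 921 and 873 with all birds. The groups did not overlap for 6 of the 49 probe sets (12.2%), against 8.39% of all.

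**Figure D1:**
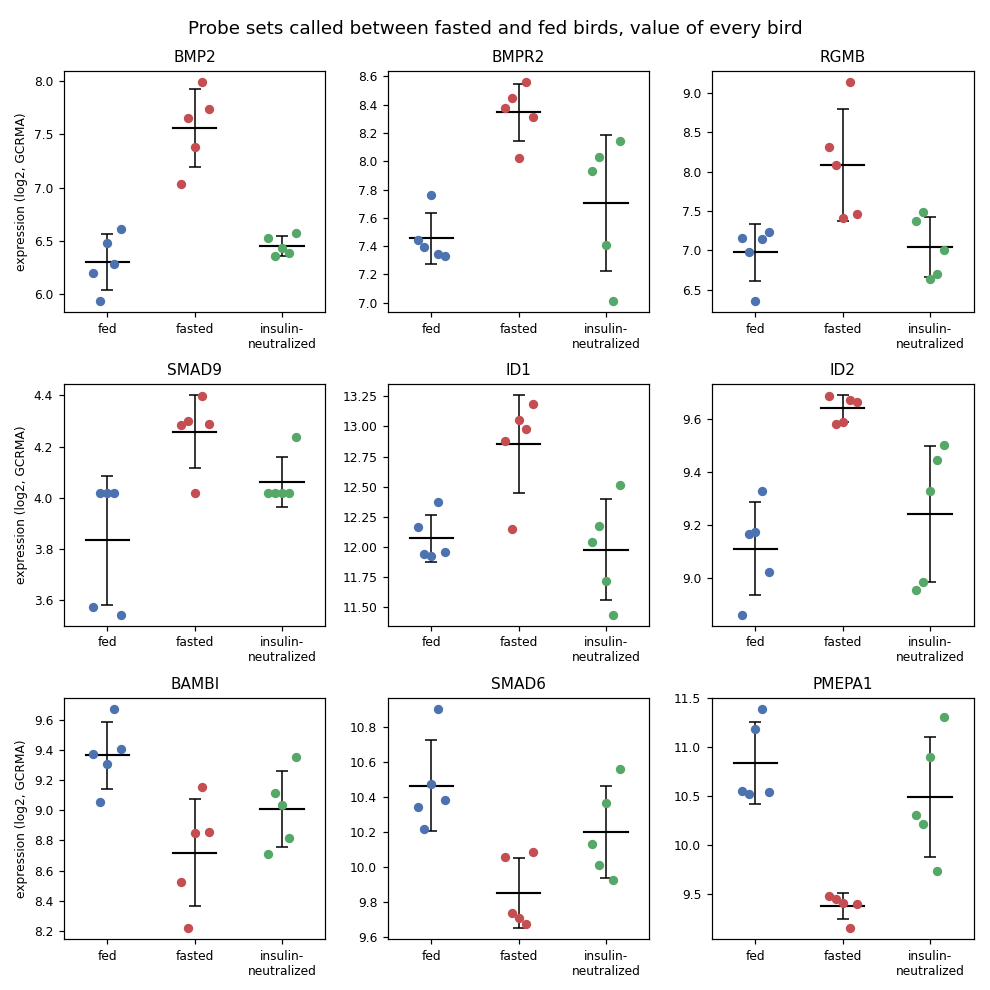
Expression (log2, GCRMA) of the 9 probe sets called between fasted and fed birds, with birds as points, the mean as a horizontal bar and the SD of 5 birds as error bar. The fasted group stood clear of the fed group for BMP2, BMPR2, RGMB, ID2, SMAD6 and PMEPA1, and overlapped it for SMAD9, ID1 and BAMBI.

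BMP2, a ligand known for driving bone formation and adipocyte commitment, showed the smallest adjusted p of the 49 probe sets. It was at 6.19, 5.93, 6.48, 6.28 and 6.61 in fed birds 1 to 5, at 7.03, 7.66, 7.38, 7.997 and 7.74 in fasted birds, and at 6.53, 6.35, 6.43, 6.39 and 6.57 in insulin-neutralized birds. Every fasted bird was above every other bird, and the insulin-neutralized birds lay within the upper part of the fed range. Mean levels were 6.30 ± 0.26 (SD, n = 5) in fed, 7.56 ± 0.37 in fasted and 6.45 ± 0.09 in insulin-neutralized birds. BMP2 rose 2.40-fold with fasting (1.26 on the log2 scale against fed birds, SE 0.17, adjusted p = 0.000374). With insulin neutralized it lay 2.16-fold below the fasted level (-1.11 on the log2 scale, SE 0.17, adjusted p = 0.00213). Both calls held under every alternative tried. Further BMP2 probe sets, at 2.18 and at 2.18 to 2.23, were below 3 in all 15 birds and were not kept.

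Other BMP and GDF ligands did not pass the test. BMP5 was 1.99-fold higher in fasted birds and 2.07-fold higher in insulin-neutralized birds than in fed birds, with adjusted p = 0.216 and 0.272. Its fed birds spread from 2.65 to 5.23, its fasted birds from 4.29 to 5.59 and its insulin-neutralized birds from 4.19 to 5.98, so that the groups overlapped. BMP7 differed by 0.05 to 0.27 on the log2 scale in size and BMP6 by 0.08 to 0.26. GDF9, an oocyte growth factor in mammals, read 3.12 in 12 of the 15 birds.

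None of the TGF-beta ligands was called. TGFB3, by the probe set named from its smallest p in the ligand class, was at 8.82, 8.89, 8.67, 9.39 and 9.19 in fed birds, at 9.14, 9.14, 9.03, 8.91 and 9.21 in fasted birds, and at 8.26, 8.88, 8.69, 8.11 and 8.63 in insulin-neutralized birds. The insulin-neutralized birds did not overlap the fasted ones and overlapped the fed ones. The difference from fasted birds was -0.57 (SE 0.16, adjusted p = 0.0634), and it passed the threshold with array weights (0.0257), without fed birds 4 and 5 (0.0261), without fed bird 4 (0.0408) and without insulin-neutralized bird 2 (0.0416). The other TGFB3 probe set differed by -0.40 (adjusted p = 0.195), again with no overlap between these groups.

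TGFB1 was singled out after its values were seen, as the probe set with the smallest p between insulin-neutralized and fed birds. Its levels were 7.37, 6.96, 7.29, 8.02 and 7.64 in fed birds, 7.07, 7.37, 6.99, 7.07 and 7.30 in fasted birds, and 6.80, 7.02, 6.54, 7.10 and 6.83 in insulin-neutralized birds. The insulin-neutralized group overlapped the fed group only through fed bird 2. Against fed birds it was 1.51-fold lower (log2 fold change -0.60, SE 0.17, unadjusted p = 0.00357, adjusted p = 0.131). Without fed birds 4 and 5, the highest of their group, the difference was -0.35 (adjusted p = 0.428). TGFB2 had its highest value, 11.04, in fed bird 4, and its log2 differences were -0.45, -0.20 and 0.25 in fasted vs. fed, insulin-neutralized vs. fed and insulin-neutralized vs. fasted birds, with adjusted p from 0.231 to 0.667.

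**Figure D2:**
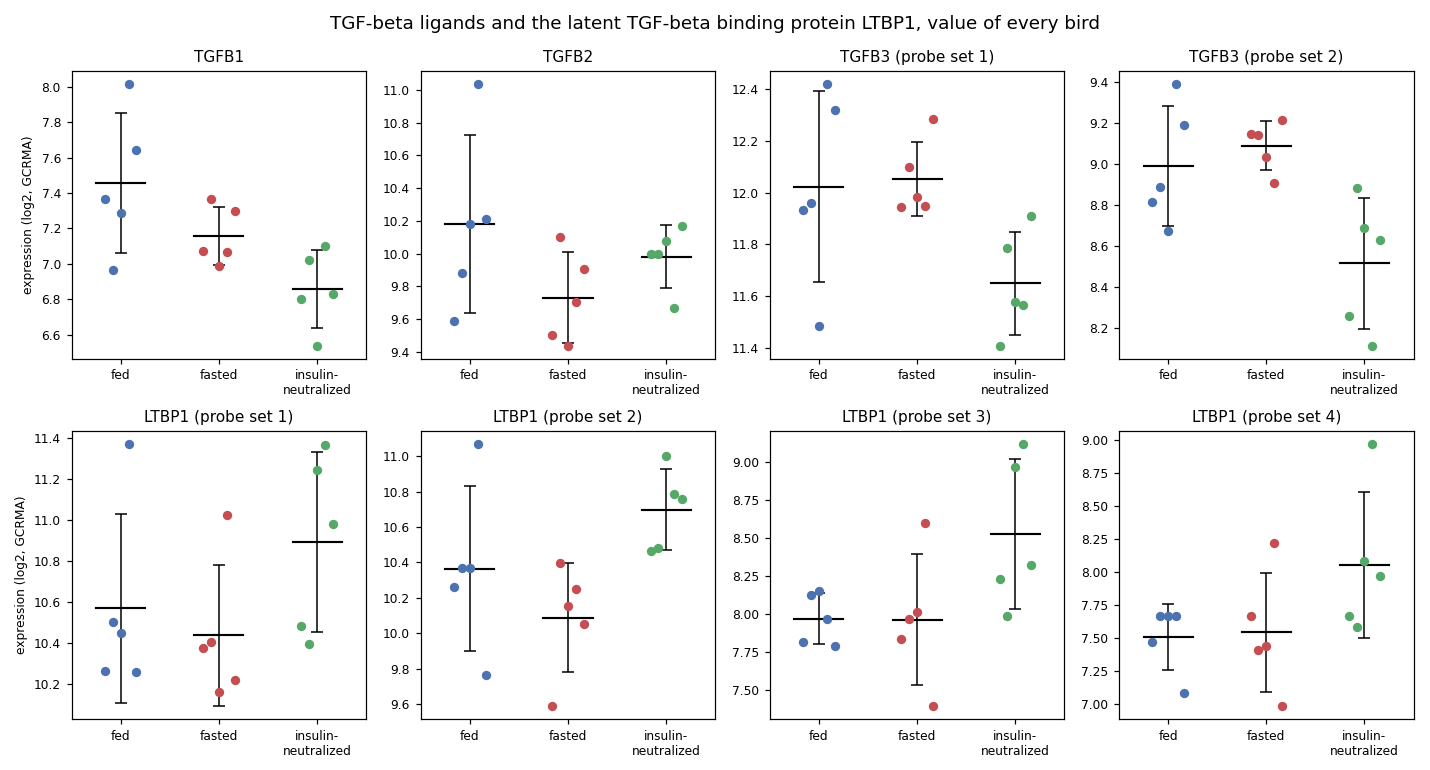
Expression (log2, GCRMA) of the 3 TGF-beta ligands and of LTBP1, with a panel for each probe set kept, birds as points, means as bars and SDs of 5 birds as error bars. Insulin-neutralized birds had the lowest mean for TGFB1 and both TGFB3 probe sets and the highest mean for all 4 LTBP1 probe sets, none of it at an adjusted p under 0.05.

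Among the receptors and coreceptors, 2 of 9 probe sets were called between fasted and fed birds, both higher, against 9.64% of all probe sets. BMPR2, the type II receptor for BMPs, was at 7.44, 7.39, 7.76, 7.34 and 7.33 in fed birds, at 8.38, 8.45, 8.03, 8.56 and 8.32 in fasted birds, and at 7.93, 8.03, 7.41, 7.01 and 8.15 in insulin-neutralized birds. Fasted and fed birds did not overlap, and the insulin-neutralized birds spread from below the fed range into the fasted one. BMPR2 rose 1.86-fold with fasting (0.89 on the log2 scale against fed birds, SE 0.19, adjusted p = 0.0104). It was called under every alternative but the fit without fed birds 4 and 5 (0.81, adjusted p = 0.0524). The difference between insulin-neutralized and fasted birds, -0.64, had an adjusted p of 0.0835.

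RGMB is a membrane-anchored coreceptor that binds BMP2 and BMP4 directly. Its levels were 7.16, 6.98, 6.35, 7.14 and 7.24 in fed birds, 8.31, 8.09, 7.41, 9.15 and 7.46 in fasted birds, and 7.37, 7.49, 6.64, 6.70 and 6.997 in insulin-neutralized birds. All fasted birds were above all fed birds, fasted birds 3 and 5 by little, and fasted bird 4 was highest. RGMB rose 2.16-fold with fasting (1.11 on the log2 scale against fed birds, SE 0.30, adjusted p = 0.0347). Leaving out fasted bird 1, 2 or 4, or any of fed birds 1 to 4, ended the call (adjusted p up to 0.0759), as did the fit without fed birds 4 and 5 (0.0572) and the fit of fasted and fed birds alone (0.0875). In insulin-neutralized birds it was 2.06-fold lower than in fasted birds (adjusted p = 0.0738), and that difference passed the threshold with array weights (0.0375) and without fasted bird 3 (0.0466).

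No other receptor was called. BMPR1B, a type I BMP receptor and the member of this class with the smallest p among genes not called, was at 4.61, 4.45, 4.85, 3.96 and 5.21 in fed birds, at 3.88, 3.96, 4.58, 4.59 and 3.51 in fasted birds, and at 4.67, 4.60, 4.34, 4.23 and 4.68 in insulin-neutralized birds. The 3 groups overlapped, and the difference between fasted and fed birds was -0.51 (SE 0.24, adjusted p = 0.205). BMPR1A, the other type I receptor of the BMPs, differed by 0.28 (adjusted p = 0.357) between fasted and fed birds. For the TGF-beta receptors the same comparison gave 0.16 for TGFBR1, the type I kinase, -0.09 and -0.16 for the pair of probe sets of TGFBR2, the type II kinase, and -0.02 for the coreceptor TGFBR3, with adjusted p from 0.503 to 0.977. TGFBR2L was 1.41-fold higher in fasted birds (adjusted p = 0.208). Without fed birds 4 and 5 its log2 fold change was 0.82 (adjusted p = 0.0408).

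Secreted binders and inhibitors gave no call in 8 probe sets of 5 genes in any comparison. Of all probe sets 9.64% were called in fasted vs. fed, 0.494% in insulin-neutralized vs. fed and 4.06% in insulin-neutralized vs. fasted birds. A count of 0 in 8 probe sets lies near that background. LTBP1, which holds latent TGF-beta in the matrix, had the smallest p of this class. By that probe set it was at 10.26, 10.37, 10.37, 11.07 and 9.76 in fed birds, at 9.59, 10.40, 10.15, 10.25 and 10.05 in fasted birds, and at 10.46, 10.48, 11.003, 10.78 and 10.76 in insulin-neutralized birds. The insulin-neutralized birds were above all fasted birds and overlapped the fed group. They differed from fasted birds by 0.61 (SE 0.21, adjusted p = 0.133), and the adjusted p was 0.0187 under array weights and 0.0290 when fed birds 4 and 5 were left out. The 4 LTBP1 probe sets differed by 0.46 to 0.61 in this comparison, by 0.33 to 0.56 between insulin-neutralized and fed birds and by -0.28 to 0.04 between fasted and fed birds. These comparisons share their insulin-neutralized or fed birds, and the 4 probe sets read the same RNA.

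The BMP antagonists CHRD, CHRDL1 and CHRDL2 were at lower mean levels in fasted than in fed birds by 0.32, 0.51 and 0.47 on the log2 scale, with adjusted p from 0.186 to 0.354. CHRD was 0.49 lower in insulin-neutralized than in fed birds (unadjusted p = 0.0278, adjusted p = 0.240), with fed bird 4 highest at 9.40. CHRDL2 was the only 1 of the 49 probe sets whose insulin-neutralized and fed birds did not overlap, against 4.04% of all probe sets. It read 3.34 in 4 insulin-neutralized and 3 fasted birds and 3.37 to 4.50 in fed birds, with adjusted p = 0.343. GREM1, another BMP antagonist, spread widely within groups, from 7.78 to 9.76 in fed, 8.55 to 10.23 in fasted and 7.83 to 10.58 in insulin-neutralized birds.

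**Figure D3:**
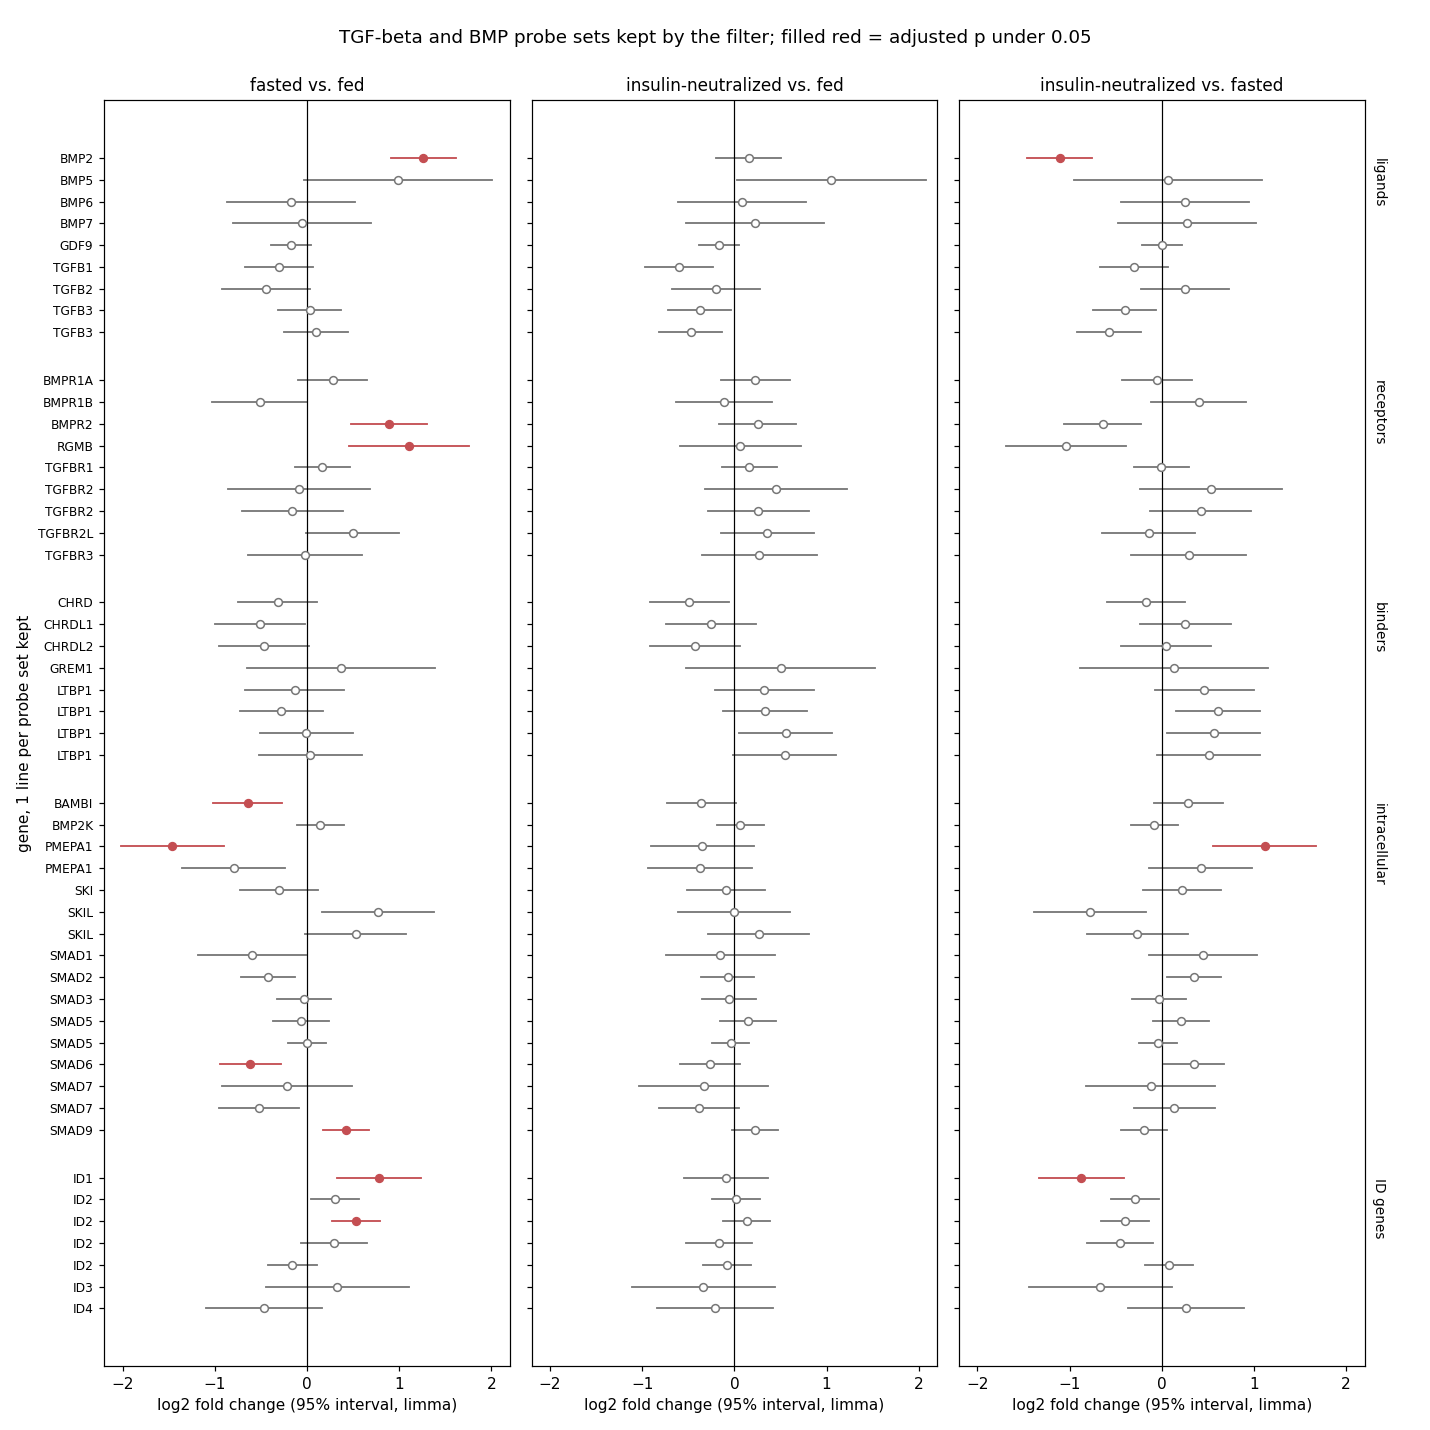
Log2 fold change with its 95% interval from limma for the 49 probe sets kept, in the 3 comparisons, ordered by role from ligands (top) to ID genes (bottom). Filled red points have an adjusted p under 0.05: 9 in fasted vs. fed, 0 in insulin-neutralized vs. fed and 3 in insulin-neutralized vs. fasted birds.

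SMADs and the other regulators inside the cell or at its membrane held 4 of the 9 calls between fasted and fed birds. Of their 16 probe sets 1 was called higher and 3 lower, against 4.95% and 4.69% of all probe sets. PMEPA1, a membrane protein that is induced by TGF-beta and captures SMAD2 and SMAD3, had the largest change of all 49 probe sets. Its levels were 10.55, 10.52, 11.18, 11.39 and 10.54 in fed birds, 9.48, 9.44, 9.40, 9.15 and 9.40 in fasted birds, and 10.31, 10.21, 10.89, 9.73 and 11.30 in insulin-neutralized birds. Every fasted bird was below every other bird, and the fasted birds varied least. PMEPA1 fell 2.75-fold with fasting (-1.46 on the log2 scale against fed birds, SE 0.26, adjusted p = 0.00303), a call kept under every alternative. With insulin neutralized it lay 2.16-fold above the fasted level (1.11 on the log2 scale, SE 0.26, adjusted p = 0.0282). Leaving out fasted bird 3, 4 or 5, or insulin-neutralized bird 1, 3 or 5, ended this call (adjusted p up to 0.0767). The other PMEPA1 probe set differed by -0.80 between fasted and fed birds (adjusted p = 0.0726), with overlap, and by 0.42 between insulin-neutralized and fasted birds (adjusted p = 0.451).

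SMAD6 is the inhibitory SMAD that acts mainly on BMP receptors. It was at 10.35, 10.22, 10.48, 10.91 and 10.39 in fed birds, at 10.06, 9.74, 9.71, 9.68 and 10.09 in fasted birds, and at 10.14, 10.01, 10.37, 9.93 and 10.56 in insulin-neutralized birds. Fasted birds were all below fed birds, and the insulin-neutralized birds overlapped both groups. SMAD6 fell 1.53-fold with fasting (-0.61 on the log2 scale against fed birds, SE 0.15, adjusted p = 0.0215). Leaving out fasted bird 3 or 4 ended the call (adjusted p up to 0.0588), as did the fit without fed birds 4 and 5 (0.0689). SMAD7, the inhibitory SMAD of both branches, differed by -0.52 and -0.21 by its pair of probe sets (adjusted p = 0.128 and 0.737).

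BAMBI is a decoy receptor without a kinase domain that takes the place of a type I receptor. Its levels were 9.37, 9.05, 9.31, 9.67 and 9.41 in fed birds, 8.52, 8.22, 8.85, 9.15 and 8.86 in fasted birds, and 8.71, 9.12, 9.03, 8.82 and 9.35 in insulin-neutralized birds. Fasted bird 4 lay above fed bird 2, and the other fasted birds lay below every fed bird. BAMBI fell 1.56-fold with fasting (-0.64 on the log2 scale against fed birds, SE 0.17, adjusted p = 0.0330). It was no longer called when fasted bird 1 or 2, or fed bird 1, 3, 4 or 5, was left out (adjusted p up to 0.0766), nor without fed birds 4 and 5 (0.128), with array weights (0.0834) or in a fit of fasted and fed birds alone (0.0760).

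SMAD9, a signal-carrying SMAD of the BMP branch, was at 3.57, 4.02, 4.02, 4.02 and 3.54 in fed birds, at 4.28, 4.30, 4.02, 4.40 and 4.29 in fasted birds, and at 4.02, 4.02, 4.02, 4.02 and 4.24 in insulin-neutralized birds. In 7 of the 15 birds the value was identical to the last digit, at 4.02. Only 5 birds, 4 of them fasted, were above it. SMAD9 rose 1.34-fold with fasting (0.42 on the log2 scale against fed birds, SE 0.12, adjusted p = 0.0356). The call did not outlast the removal of fasted bird 1, 2, 4 or 5, or of fed bird 1 or 5 (adjusted p up to 0.0891), or of fed birds 4 and 5 together (0.0621), and in a fit of fasted and fed birds alone the adjusted p was 0.106.

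The remaining SMADs were not called. SMAD2, which carries the TGF-beta signal, had the smallest p among the uncalled genes of this class, with levels of 10.49, 10.25, 10.42, 10.21 and 10.29 in fed birds, 10.26, 10.05, 9.33, 9.92 and 9.995 in fasted birds, and 10.23, 10.25, 10.26, 10.26 and 10.30 in insulin-neutralized birds. Fasted bird 1 lay within the fed range and the other 4 fasted birds lay below it. The difference between fasted and fed birds was -0.42 (SE 0.14, adjusted p = 0.0669), and without fasted bird 1 it was -0.51 (adjusted p = 0.0339). SMAD3, the other SMAD of the TGF-beta branch, differed by -0.03 (95% interval -0.33 to 0.26). SMAD5, a SMAD of the BMP branch, differed by 0.00 and -0.06 by its pair of probe sets, with intervals within -0.37 and 0.24. SMAD1, of the same branch, differed by -0.60 (adjusted p = 0.193), with fed bird 4 at 9.12 and the other fed birds at 7.73 to 7.86.

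SKIL, a corepressor that binds SMADs and is known as a target of TGF-beta, was at higher mean levels in fasted than in fed birds by 0.77 and 0.53 with its pair of kept probe sets (adjusted p = 0.103 and 0.215). By the former probe set, insulin-neutralized birds were 0.78 below fasted birds without overlap (adjusted p = 0.154). That difference had an adjusted p of 0.0365 under array weights and 0.0432 when fed birds 4 and 5 were left out. A further SKIL probe set fell just outside the filter, below 3 in 5 birds, with values from 2.60 to 4.43. Just inside it was BMP6, below 3 in 4 birds, with values from 2.33 to 4.80. SKI, the related corepressor, differed by -0.31 between fasted and fed birds (adjusted p = 0.367). BMP2K, a kinase named for its induction by BMP2, differed by 0.15 (adjusted p = 0.483).

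ID genes encode helix-loop-helix proteins that bind transcription factors and keep them off DNA. ID1 was at 12.17, 11.94, 11.93, 12.37 and 11.96 in fed birds, at 12.88, 12.15, 13.05, 12.98 and 13.19 in fasted birds, and at 12.04, 12.18, 11.72, 11.44 and 12.52 in insulin-neutralized birds. Fasted bird 2 lay within the fed range, and the other 4 fasted birds lay above every fed and insulin-neutralized bird. ID1 rose 1.72-fold with fasting (0.78 on the log2 scale against fed birds, SE 0.21, adjusted p = 0.0347). Insulin-neutralized birds lay 1.83-fold below them (-0.87 on the log2 scale, SE 0.21, adjusted p = 0.0347). The former call was lost when fasted bird 1, 3, 4 or 5, or when fed bird 1, 2, 3 or 5, was left out (adjusted p up to 0.0800), and without fed birds 4 and 5 (0.0624). The latter was lost when fasted bird 1, 3, 4 or 5, or when insulin-neutralized bird 1, 3 or 4, was left out (up to 0.0899), and in a fit of these 2 groups alone (0.0660).

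ID2, another gene of this family, had 4 probe sets kept, of which 1 was called. That probe set was at 8.86, 9.17, 9.17, 9.33 and 9.02 in fed birds, at 9.69, 9.58, 9.59, 9.67 and 9.67 in fasted birds, and at 8.95, 8.98, 9.33, 9.44 and 9.50 in insulin-neutralized birds. The 5 fasted birds were close together, above all others. ID2 rose 1.45-fold with fasting (0.53 on the log2 scale against fed birds, SE 0.12, adjusted p = 0.0133), a call kept under every alternative that tested it. The other 3 differed by 0.30, 0.29 and -0.16 (adjusted p = 0.135, 0.311 and 0.464). The probe set at 0.30 was the brightest of ID2 and stood for it in the fit with 1 probe set per gene, where ID2 was not called. Its probe set at -0.16 read 3.11 in 11 birds, and the one at 0.29 read 4.01 in 7 birds.

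ID3 had the smallest p among the uncalled genes of its class, between insulin-neutralized and fasted birds. It was at 8.27, 7.86, 7.999, 8.59 and 7.97 in fed birds, at 8.67, 7.90, 8.64, 8.69 and 8.46 in fasted birds, and at 8.10, 7.35, 8.19, 6.41 and 8.97 in insulin-neutralized birds. The insulin-neutralized birds spread over the range of both other groups, and the difference from fasted birds was -0.67 (SE 0.36, adjusted p = 0.370). ID4 was at a mean of 8.92 in fed and 8.45 in fasted birds, a difference of -0.47 (adjusted p = 0.353).

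Between insulin-neutralized and fed birds 0 of 49 probe sets were called, against 0.494% of all probe sets, so that a count of 0 lies near the background. At an unadjusted p under 0.05 there were 6 (12.2%), against 17.5% of all probe sets: BMP5 and a probe set of LTBP1 with higher levels, and TGFB1, CHRD and both TGFB3 probe sets with lower ones. Under every alternative the count with limma remained 0. For the genes called between fasted and fed birds the intervals of this difference were as follows. The 95% interval was -0.20 to 0.51 for BMP2, -0.16 to 0.67 for BMPR2, -0.59 to 0.72 for RGMB, -0.55 to 0.37 for ID1 and -0.13 to 0.39 for ID2. For the genes lower with fasting it was -0.90 to 0.21 for PMEPA1, -0.73 to 0.02 for BAMBI and -0.59 to 0.06 for SMAD6. SMAD9 had -0.02 to 0.48. Both comparisons rest on the same 5 fed birds.

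Between insulin-neutralized and fasted birds 3 of 49 probe sets were called (6.12%), against 4.06% of all probe sets, 1.54% higher and 2.53% lower. At an unadjusted p under 0.05 there were 15 (30.6%), against 17.9%. The called genes were PMEPA1, higher, and BMP2 and ID1, lower, with the values given above. Only BMP2 remained called without fasted bird 4, without fasted bird 5 and without insulin-neutralized bird 1 or 3. Over all probe sets 286 were called higher and 470 lower with all birds. Those fits gave, in the same order, 154 and 312, 146 and 339, 130 and 318, and 145 and 291. The 2 groups did not overlap for 7 probe sets (14.3%), against 8.34% of all: BMP2, PMEPA1, ID2, LTBP1, SKIL and both of TGFB3. Over the 49 probe sets the median log2 fold change was -0.05 in fasted vs. fed, -0.04 in insulin-neutralized vs. fed and 0.06 in insulin-neutralized vs. fasted birds, beside -0.04, -0.02 and 0.02 over all probe sets. The median size of the change was 0.32, 0.25 and 0.29, beside 0.22, 0.20 and 0.18 over all probe sets. The median SE was also larger for the 49 probe sets, 0.21 against 0.18 over all probe sets. The sizes can therefore not be read as larger changes in these genes.

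**Figure D4:**
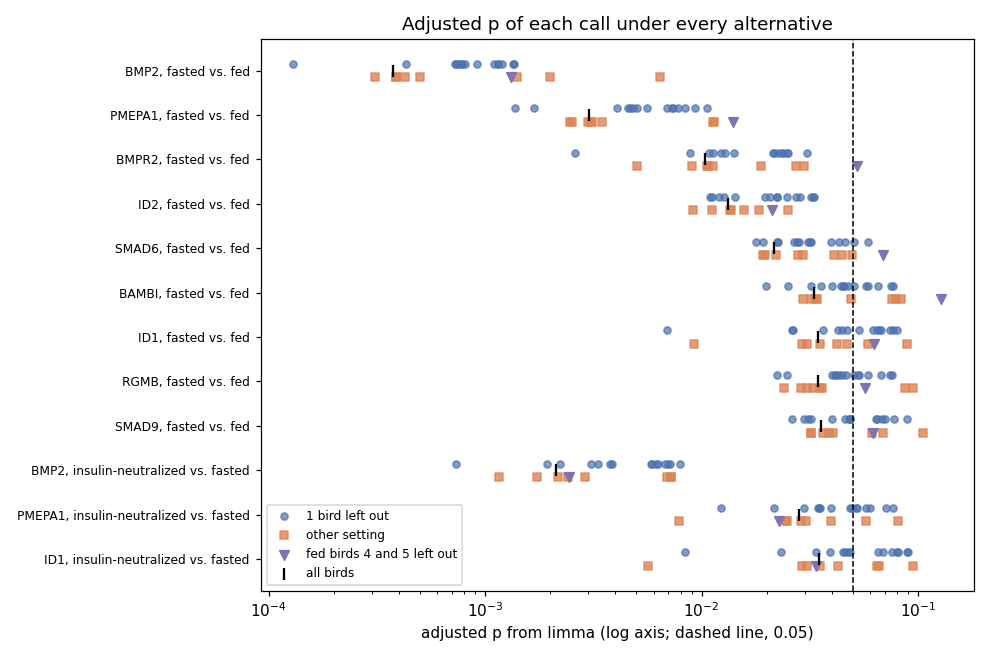
Adjusted p from limma (log axis) of each of the 12 calls with all birds (black bar), with 1 bird left out (circles), with fed birds 4 and 5 left out (triangles) and under the other settings (squares). BMP2 in both comparisons and PMEPA1 and ID2 in fasted vs. fed birds stayed to the left of the dashed line at 0.05 throughout. The called ID2 probe set was not part of the fit with 1 probe set per gene.

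Of 81 other genes of the pathway, written down by role, 65 were on the array under those symbols and 51 were kept, each by its brightest probe set. Between fasted and fed birds 8 were higher and 1 was lower (17.6%), against 10.7% of all named genes taken in the same way. The list was written with earlier results of these data known, so its shares are not independent support for the results above. LRRC32, which anchors latent TGF-beta at the cell surface, was at 9.97 to 10.36 in fed, 10.92 to 11.83 in fasted and 9.70 to 10.41 in insulin-neutralized birds, and rose 2.32-fold with fasting (adjusted p = 0.000634). CYR61, a matrix protein, was 4.27-fold higher (adjusted p = 1.21e-05), and ACVR1C, a type I receptor of activins, was 13.8-fold higher (adjusted p = 2.74e-05). The transcription factors SNAI2, RUNX2 and ATOH8 were higher by 1.26, 0.80 and 0.74 on the log2 scale and the ubiquitin ligases SMURF2 and WWP1, which act on receptors and SMADs, by 1.06 and 1.04. ZEB2, a repressor that binds SMADs, was lower by a log2 difference of -0.67 (adjusted p = 0.0205).

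Between insulin-neutralized and fed birds 0 of these 51 genes were called, against 0.595% of all named genes. At an unadjusted p under 0.05 there were 14 of the 51. Of all probe sets 17.5% reached that level, as did 1859 of 9243 named genes in the separate fit with 1 probe set per gene. Under array weights 3 were called. SNAI2 was called without fasted bird 2, and ACVR1C without fed bird 5. Between insulin-neutralized and fasted birds 4 were called (7.84%), against 4.36%. ZEB2 was higher, by 0.78, and ACVR1C, CYR61 and LRRC32 were lower, with log2 fold changes of -2.51, -1.56 and -1.18. Without fasted bird 2 the count was 7.

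Fibroblast and preadipocyte markers were at slightly lower mean levels in fasted birds, a difference that did not pass adjustment. The 7 markers kept of 9 averaged 0.16 lower on the log2 scale in fasted than in fed birds and 0.14 above the fasted mean in insulin-neutralized birds, each at p = 0.0238 (exact permutation test, two-sided, 5 against 5 birds; 0.238 adjusted over 10 marker lists), and 0 of the 7 were called. Their mean deviation was -0.04 to 0.29 in fed, -0.16 to -0.01 in fasted and -0.05 to 0.12 in insulin-neutralized birds, with fed bird 4 highest. PDGFRA, a marker of precursor cells, was on the array but not kept. Skeletal muscle markers were 1.01 lower in fasted than in fed birds (exact permutation p = 0.0714, adjusted 0.357), with ACTA1 called lower, and against the fasted group ACTA1 was called higher in insulin-neutralized birds, by 1.25 (adjusted p = 0.0139). Of the adipocyte markers PPARG was called lower with fasting, by a log2 difference of -0.82 (adjusted p = 0.0193), and CIDEC lower in insulin-neutralized birds against the fasted group, by -0.84 (adjusted p = 0.0356). In the former comparison CIDEC differed by 0.28 and in the latter PPARG by 0.43, neither called. As a set, the 6 adipocyte markers differed by -0.17 in fasted vs. fed birds (exact permutation p = 0.119). In insulin-neutralized vs. fasted birds the set differed by -0.06 (exact permutation p = 0.754). The endothelial marker CDH5 was called higher with fasting, by 0.44 (adjusted p = 0.0389). KDR and FLT1, of the same list, were lower, with log2 differences of -0.87 and -0.23, and were not called. The 7 endothelial markers kept averaged 0.11 higher in fasted than in fed birds (exact permutation p = 0.738). Mesothelial markers ranged from -2.51 to 2.17 among fed birds and endothelial markers were lowest in fed bird 4, at -0.89. Air sac and lung epithelium markers ranged from -3.89 to 1.93 among fed and from -2.14 to 1.82 among insulin-neutralized birds. Ciliated cell markers ranged from -1.29 to 1.04 among fed birds. The part of these cells in the results was not tested.

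The 12 genes with no probe set kept were the ligands BMP3, BMP4, BMP10, BMP15, GDF2, GDF3, GDF5 and GDF10, the coreceptor RGMA, the binders LTBP2 and NOG, and the receptor-associated protein TGFBRAP1. BMP4, a ligand known for adipocyte commitment in mice, had 3 probe sets, all below 3 in every bird but fed bird 4, where 1 of them read 3.10. The 7 LTBP2 probe sets lay between 2.18 and 2.74. The lowest value in the table is 2.18. NOG, which encodes the BMP antagonist noggin, was below 3 in all birds but fasted bird 5, at 5.63.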

How the data were processed

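Abdominal adipose RNA of 15 chickens was measured on 1 array per bird. The authors deposited log2 values per probe set, background-corrected by probe sequence, normalized and summarised by GCRMA. Tools named in the processing notes of the submitters are RMA, GCRMA and R 2.9.0. Groups and bird numbers come from the sample labels. The table holds 38535 probe sets, and 96 controls and 19827 probe sets below 3 in at least 5 birds were taken out. One model with a mean for each of 3 groups was fitted with limma 3.58.1 under R 4.3.3, with 12 residual and 2.07 prior degrees of freedom, two-sided, with Benjamini-Hochberg adjustment in each comparison over all 18612 probe sets. The fit was first run on simulated data with independent normal noise. Those data held no tied values and no outlying birds, so the run does not bear on calls that depend on them. Log2 fold changes had a median SE of 0.18, and the number of arrays limits this precision. The p-values of limma set a difference between groups against the spread between birds within groups, moderated over all probe sets. The platform annotation gives 27178 probe sets 1 symbol, 177 several and 11180 none. All 87 member probe sets were found by gene identifier in the RefSeq gene table, and 0 symbols differed from those of the array. Sequences were not used here.

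Named with every bird's value were members called in any comparison and, in each role class, the uncalled gene with the smallest p. Further members were given by role, some chosen after their values were seen. Members, roles, the list of other pathway genes and the marker lists were chosen with earlier results of these data known. Marker levels were compared with exact permutation tests, whose smallest p for 5 against 5 birds is 0.00794. Alternatives were other filters, centring, variance moderation, array weights, fits of fewer groups or probe sets, a replicate block, and birds left out. Leaving out fed birds 4 and 5, and all alternatives for the list of other pathway genes, were chosen after seeing the data. Figures were drawn with matplotlib 3.10.9.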

Additional observations from a re-analysis of the deposited data

Results flagged for a closer look

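Within a group of 5 birds, a bird was set apart where its gap to the nearest of the others exceeded 0.71 of the range of the group, a limit that chance passes in about 1 of 20 groups. Among 147 groups (49 probe sets in 3 groups), 19 held such a bird. The limit is meant for normally distributed values, and several of the 19 groups held tied values. The share over all probe sets kept was not computed, so the 19 cannot be read as an excess. Of the 19, 3 concern probe sets called between fasted and fed birds. BMPR2 was at 7.76 in fed bird 3 and at 7.33 to 7.44 in the other fed birds. PMEPA1 was at 9.15 in fasted bird 4 and at 9.40 to 9.48 in the other fasted birds. SMAD9 was at 4.24 in insulin-neutralized bird 5 and at 4.02 in the others of its group.

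Among probe sets not called, fed bird 4 stood apart for SMAD1, at 9.12 against 7.73 to 7.86, and for LTBP1, at 11.37 against 10.26 to 10.50. By the same LTBP1 probe set fasted bird 4 was at 11.03 against 10.16 to 10.40. TGFBR1 was at 10.74 in fasted bird 2 against 10.07 to 10.23. SMAD5 was at 9.48 in fed bird 3 against 8.92 to 9.01.

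The rest were probe sets at low values, under 5 on the log2 scale in every bird. By its other probe set, SMAD5 was at 4.26 in insulin-neutralized bird 5 against 4.11 to 4.13. BMP6 was at 4.80 in fed bird 5 against 2.33 to 3.02. BMPR1A was at 2.98 in fed bird 2 against 3.88 to 3.98, at 4.36 in fasted bird 4 against 3.88 to 3.94, and at 4.25 in insulin-neutralized bird 2 against 3.82 to 3.91. CHRDL2 was at 3.28 in insulin-neutralized bird 3 against 3.34. One dim ID2 probe set was at 3.82 in fed bird 3 against 4.00 to 4.01 and at 3.13 in insulin-neutralized bird 1 against 3.92 to 4.01. Another was at 3.76 in fed bird 2 against 3.11, at 2.93 in fasted bird 3 against 3.11 to 3.16, and at 3.36 in insulin-neutralized bird 5 against 3.11.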

How the results depend on the processing

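Of 429 values of 18 differences under the alternatives, 359 stayed on their side of the threshold, 63 lost it, 7 gained it and 0 turned direction. Member probe sets called between fasted and fed birds numbered 9, against 5 with no filter and 4 without fed birds 4 and 5, and 5 to 9 with 1 bird left out. Between insulin-neutralized and fasted birds they numbered 3, against 1 with no filter, 8 under array weights and 6 when fed birds 4 and 5 were left out, and 1 to 4 with 1 bird left out. Over all probe sets, 286 were called higher and 470 lower in this comparison, and 163 and 303 with no filter. Array weights gave 747 and 1042, and leaving out fed birds 4 and 5 gave 671 and 841. Between fasted and fed birds 921 were called higher and 873 lower. That became 623 and 563 of 38439 probe sets with no filter and 863 and 804 of 18612 without fed birds 4 and 5. Leaving out 1 bird also lowered most counts over all probe sets, to 618 and 562 without fasted bird 4. Without the filter 38 dim member probe sets, and all other dim probe sets, entered the adjustment. Between insulin-neutralized and fed birds the count of member probe sets was 0 throughout (0 to 0 with 1 bird left out). With the bird number as a replicate block the counts were 7 between fasted and fed birds and 1, BMP2, between insulin-neutralized and fasted birds, where ID1 (0.0649) and PMEPA1 (0.0576) lost their calls, as ID1 (0.0590) and SMAD9 (0.0692) did between fasted and fed birds. The deviations of birds of the same number had correlations of -0.392 to 0.382. Birds of different numbers were not compared in this way, so whether the numbers pair the birds cannot be told. Of the other pathway genes, 0 were called between insulin-neutralized and fed birds, 3 with array weights, 1 with 1 probe set per gene and 0 to 1 with 1 bird left out. Over all probe sets that comparison gave 50 higher and 42 lower, and 105 and 82 with array weights. Between insulin-neutralized and fasted birds 4 of the other pathway genes were called, 8 with array weights and 3 to 7 with 1 bird left out. Between fasted and fed birds it was 9 of them, and 6 to 10 with 1 bird left out. Without the filter the adjusted p was 0.0948 for RGMB, 0.0885 for ID1, 0.0792 for BAMBI and 0.0613 for SMAD9 between fasted and fed birds, and 0.0951 for ID1 and 0.0808 for PMEPA1 between insulin-neutralized and fasted birds. The cause of these changes was not tested.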

Other observations

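The probe set of NOG, the gene of noggin, a secreted antagonist that keeps BMPs from their receptors, was not kept. It read 2.40 to 2.65 in 14 of the 15 birds and 5.63 in fasted bird 5. A BMP7 probe set that was not kept read 3.42 in fed bird 4 and below 3 in the other 14 birds.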
